A study of Mus musculus with 6 samples.

Results

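The T-box genes Tbx4, Tbx5 and Tbx15, the paired-type homeobox gene Pitx1, the basic helix-loop-helix gene Hand2 and the homeobox genes Shox2, Msx1, Msx2, Lhx9 and Emx2 were examined as a set of 10 transcription factors that mark position in the embryonic limb and trunk. They were taken by symbol from a table of 17512 genes, and all 10 were found. Primary mouse embryonic fibroblasts (pMEFs), the connective-tissue cells that grow out when an embryo is dissociated and plated, were sequenced from 3 HAT1 WT lines (36, 47 and 78) and 3 HAT1 KO lines (33, 41 and 72). All 6 lines were of the C57bl6 background with no treatment labelled, and the KO lines differed by label only in carrying a knockout of Hat1, which encodes the acetyltransferase of newly synthesised histone H4. According to the study's methods the embryos were taken at mid-gestation and freed of internal organs before they were dispersed, so the cultures came from what remained of the embryo, and no sort of cells is described. The sex of the embryos was not given, and the labels did not say whether a line was 1 embryo or several, so p-values measure the spread between these 6 lines alone.

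Fibroblasts keep a memory of where in the body they arose, and part of it is held in the transcription factors that patterned the embryo. In the limb, Tbx5 starts and marks the forelimb, whereas Tbx4 and its upstream activator Pitx1 mark the hindlimb. Hand2 acts in the posterior limb mesenchyme upstream of Sonic hedgehog, Shox2 is needed for the skeleton of the proximal limb, Tbx15 and Emx2 act in the shoulder and pelvic girdles and the trunk, Lhx9 acts with its relative Lhx2 in the growing distal mesenchyme, and Msx1 and Msx2 are targets of bone morphogenetic protein (BMP) signalling in the distal limb and the skull.

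The clearest differences among these genes lay between lines rather than between genotypes. Msx1, Msx2 and Lhx9 were each at least 4-fold higher in KO line 72 than in any other line, Tbx4 and Pitx1 were highest in WT line 36, and Tbx15, Shox2 and Emx2 were expressed in every line within a 2.5-fold range. Promoter sequence is therefore shown for the genes that stood apart in a line and had an entry, namely Msx1, Msx2, Lhx9 and Tbx4. Each run is the 250 bases before the RefSeq transcription start in GRCm38.p6, read 5′ to 3′ on the strand of the gene. The windows of Tbx4, Lhx9 and Msx2 lie inside the gene spans given below, downstream of the outermost start of the gene. That of Msx1 lies before its gene, and that of Emx2, counted below, also lies inside. Capitals mark the letters TAAT on either strand (TAAT or ATTA), the core that homeodomain proteins such as Msx1, Msx2 and Lhx9 recognise, and the letters GGGCGG on either strand (GGGCGG or CCGCCC), the GC box. Where matches overlap, as in TAATTA, each was counted.

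Msx1, chr5:37824586-37824835, minus strand: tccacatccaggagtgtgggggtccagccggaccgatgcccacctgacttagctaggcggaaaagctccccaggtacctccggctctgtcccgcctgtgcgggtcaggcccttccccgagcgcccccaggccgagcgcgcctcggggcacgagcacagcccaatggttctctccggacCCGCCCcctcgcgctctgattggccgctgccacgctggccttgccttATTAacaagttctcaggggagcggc
Msx2, chr13:53472781-53473030, minus strand: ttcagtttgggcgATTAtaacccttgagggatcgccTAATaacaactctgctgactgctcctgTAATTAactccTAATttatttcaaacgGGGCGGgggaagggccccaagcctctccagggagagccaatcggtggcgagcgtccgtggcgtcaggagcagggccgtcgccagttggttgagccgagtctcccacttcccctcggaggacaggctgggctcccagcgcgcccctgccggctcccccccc
Lhx9, chr1:138842445-138842694, minus strand: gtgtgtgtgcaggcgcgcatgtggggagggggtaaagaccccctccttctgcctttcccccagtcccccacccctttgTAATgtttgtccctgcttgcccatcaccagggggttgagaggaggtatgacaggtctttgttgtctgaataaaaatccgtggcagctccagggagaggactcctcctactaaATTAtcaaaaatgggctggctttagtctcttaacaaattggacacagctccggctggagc
Tbx4, chr11:85896515-85896764, plus strand: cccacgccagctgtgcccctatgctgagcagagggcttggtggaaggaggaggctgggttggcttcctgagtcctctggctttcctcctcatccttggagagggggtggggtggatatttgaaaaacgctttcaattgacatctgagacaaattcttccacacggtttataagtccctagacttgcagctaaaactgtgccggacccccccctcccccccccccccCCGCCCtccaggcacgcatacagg

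RefSeq promoter entries matched 7 of the 10 genes, those of Tbx4, Hand2, Shox2, Msx1, Msx2, Lhx9 and Emx2. Among 32851 promoter windows of the same length in that table, 54.9% held TAAT at least once, with a median of 1 match. The 3 genes high in KO line 72 held 1 match (Msx1), 5 matches (Msx2) and 2 matches (Lhx9), and the Tbx4 window held 0. Hand2 also held 5, and Shox2 and Emx2 held 1 each. GGGCGG was present in 32.7% of all windows and occurred once in the windows of Msx1, Msx2 and Tbx4, and not in that of Lhx9. The windows of the 4 genes had a GC content of 68% for Msx1, 61.6% for Msx2, 58.4% for Tbx4 and 53.6% for Lhx9, against a median of 52.4% over all windows. The windows of the 3 genes high in KO line 72 thus all held TAAT, at differing counts, and not all held GGGCGG. These matches are letters in a sequence, not binding sites.

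Between 67720628 and 98786746 counts were assigned to genes per library. Expression is given as CPM, counts relative to the size of the library after scaling with TMM (trimmed mean of M-values), and genotypes were compared by the quasi-likelihood test of edgeR over 14773 genes with enough counts, among which were all 10 factors. Hat1 itself was at 17.4, 23.0 and 20.1 CPM in WT lines 36, 47 and 78 and at 10.2, 10.0 and 10.3 CPM in KO lines 33, 41 and 72, a log2 fold change of -0.99 ± 0.12 (SE) with an edgeR adjusted p of 0.0376. All 12 fibroblast markers were present, with summed levels of 76069 to 81145 CPM in WT and 60081 to 94109 CPM in KO lines, the lowest being KO line 72. Markers of blood cells and macrophages, none of the 11 at 0 throughout, summed to 2062 to 2195 CPM in WT and 1124 to 1308 CPM in KO lines, and those of the 12 proliferation genes to 493 to 741 CPM and 695 to 1030 CPM. The part of these shifts in the values of the 10 factors was not tested. Y-linked genes summed to 183, 160 and 2.33 CPM in WT lines 36, 47 and 78 and to at most 0.118 CPM in the KO lines. Xist, the X inactivation transcript, was at 1.25, 14.6 and 298 CPM in these WT lines. In KO lines 33, 41 and 72 it was at 154, 191 and 146 CPM. Sex-linked expression thus divided the WT lines, and WT line 78 was, like the KO lines, low in Y-linked genes and high in Xist. The libraries ran in lanes 8, 6 and 7 (WT lines 36, 47 and 78) and 6, 7 and 6 (KO lines 33, 41 and 72).

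**Figure D1:**
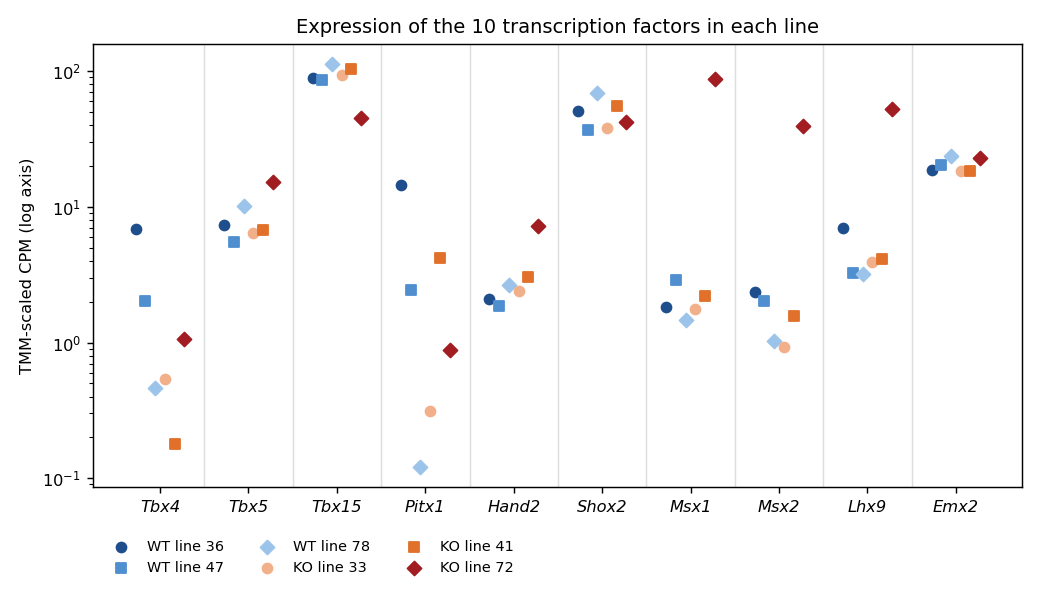
TMM-scaled CPM on a log axis for the 10 factors, with 1 point per line, HAT1 WT in blue and HAT1 KO in orange to red. KO line 72 lies far above the other 5 lines for Msx1, Msx2 and Lhx9, and WT line 36 lies above the others for Tbx4 and Pitx1.

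Relative to exon length, the factors fell into a well-expressed and a weakly expressed group. Tbx15, at a median of 24.3 CPM per kilobase of exon over the 6 lines (range 12.0 to 30.02), and Shox2, at 14.0 (11.02 to 20.9), had the highest levels per length, and their ranges overlapped. Emx2 followed at 6.52 CPM per kilobase (6.10 to 7.93), a range that met neither that of Shox2 above it nor that of Tbx5 below it. Tbx5 had a median of 1.51 CPM per kilobase (1.18 to 3.24) and Hand2 one of 1.08 (0.787 to 3.05). The medians of Msx1, Pitx1, Msx2, Lhx9 and Tbx4 lay between 0.654 and 0.236 CPM per kilobase, with maxima of 28.4, 5.42, 11.9, 5.57 and 2.03. From Tbx5 downwards, each factor overlapped its neighbours in this order. The order by median therefore hides that in KO line 72 Msx1 (28.4 CPM per kilobase) and Msx2 (11.9) lay above the whole range of Emx2.

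**Figure D2:**
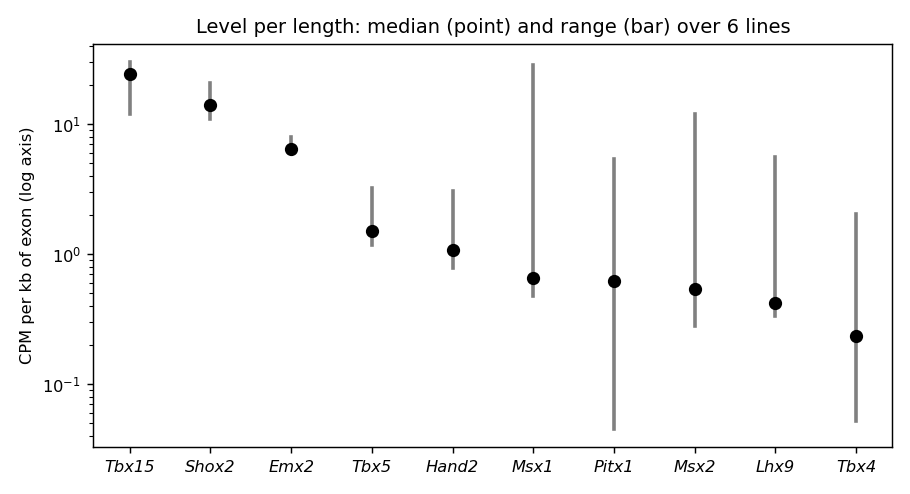
CPM per kilobase of merged exons on a log axis for the 10 factors, ordered by their median (point) with the range over all 6 lines (bar). Tbx15, Shox2 and Emx2 had narrow ranges and the highest medians, and the bars of Msx1, Pitx1, Msx2, Lhx9 and Tbx4 were the widest.

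The forelimb factor Tbx5 lies on chromosome 5 (119832668 to 119885219, plus strand, GRCm38, as are all gene positions here). It was at 7.37, 5.54 and 10.1 CPM in WT lines 36, 47 and 78 and at 6.39, 6.73 and 15.1 CPM in KO lines 33, 41 and 72. Every line thus expressed Tbx5, KO line 72 most, and the genotypes overlapped. The means were 7.68 ± 2.30 CPM in WT and 9.42 ± 4.95 CPM in KO lines (SD, n = 3 each). KO over WT, this was a log2 fold change of 0.29 ± 0.40 (SE, edgeR adjusted p = 0.779), which was -0.22 without KO line 72.

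The hindlimb factor Tbx4 lies on chromosome 11 (85886422 to 85916097, plus strand). WT lines 36, 47 and 78 held 520, 164 and 46 counts of Tbx4, which are levels of 6.89, 2.04 and 0.465 CPM. KO lines 33, 41 and 72 held 48, 12 and 82 counts, or 0.539, 0.178 and 1.06 CPM. WT lines 36 and 47 were above all KO lines, whereas WT line 78 fell within the KO range. The genotypes differed by a log2 fold change of -2.39 ± 1.05 (SE), with an edgeR adjusted p of 0.368 (0.0620 before adjustment). Without WT line 36 it was -1.07, and without KO line 72 it was -3.08. The direction held in each of the pairs within a lane, at -1.91 (KO line 33 against WT line 47), -0.93 (KO line 72 against WT line 47) and -1.35 (KO line 41 against WT line 78) on the log2 scale. The pairs with WT line 47 share that library, so they are not independent, and the last pair compares 12 with 46 counts. The lines with the most Tbx4, WT lines 36 and 47, were those with the most Y-linked expression and the least Xist. The part of sex in these values was not tested.

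Pitx1, the homeobox factor upstream of Tbx4 in the hindlimb, lies on chromosome 13 (55825051 to 55836192, minus strand). WT lines 36, 47 and 78 held 1086, 195 and 12 counts of Pitx1, which are levels of 14.4, 2.42 and 0.121 CPM. KO lines 33, 41 and 72 held 28, 285 and 68 counts, or 0.314, 4.22 and 0.881 CPM. The order of the lines did not follow the genotype: WT line 36 was highest, KO line 41 came next and WT line 78 was lowest, a spread of 119-fold. The 12 counts of WT line 78 have an exact Poisson 95% interval of 6.20 to 20.96, which covers counting error only and would be too narrow if both reads of a pair were counted. Between genotypes the log2 fold change was -1.65 ± 1.55 (SE, edgeR adjusted p = 0.672), against 0.50 without WT line 36. Within lane 6 KO line 33 was lower than WT line 47 by -2.92 on the log2 scale, and within lane 7 KO line 41 was higher than WT line 78 by 5.06. KO line 41 was thus among the high lines for Pitx1 but the lowest of all for Tbx4, where it held 12 counts. Apart from KO line 41, the factor and its target had the same order of lines. Skeletal muscle markers, of which 3 were in the table, summed to 27.9, 22.5 and 5.75 CPM in WT lines 36, 47 and 78 and to 12.2, 27.1 and 5.74 CPM in KO lines 33, 41 and 72. The lines highest in Pitx1 were also highest in this sum, through Des alone (26.8, 20.5 and 3.44 CPM in WT and 10.7, 25.3 and 3.91 CPM in KO lines). Ttn was lowest in WT line 36 (1.02 CPM) and highest in WT line 78 (2.29 CPM), and Actc1 was at no more than 0.0898 CPM in any line. The part of these markers in the Pitx1 values was not tested.

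To set the hindlimb factors against the forelimb factor within each library, their counts were divided by those of Tbx5. This removes the library scaling but not the difference in gene length, so the ratios are compared only between lines. Tbx4 counts were 93.5%, 36.8% and 4.6% of the Tbx5 counts in WT lines 36, 47 and 78 and 8.44%, 2.64% and 7.03% in KO lines 33, 41 and 72. For Pitx1, in the same order, these shares were 195%, 43.7% and 1.20% among WT lines and 4.92%, 62.6% and 5.83% among KO lines. WT lines 36 and 47 had high ratios for both genes, KO line 41 for Pitx1 alone, and WT line 78, KO line 33 and KO line 72 had low ratios for both. The log2 ratio of Tbx4 to Tbx5 differed by -2.20 between the genotypes (means of -1.99 ± 2.22 in WT and -4.19 ± 0.876 in KO lines, SD, n = 3 each; two-sided exact permutation p = 0.3). That of Pitx1 to Tbx5 differed by -0.85 (-2.18 ± 3.74 in WT and -3.03 ± 2.04 in KO lines; two-sided exact permutation p = 0.9). With 3 lines against 3 this test cannot give a p under 0.1. In bulk RNA a smaller share of cells that express a gene and less RNA per cell cannot be told apart.

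**Figure D3:**
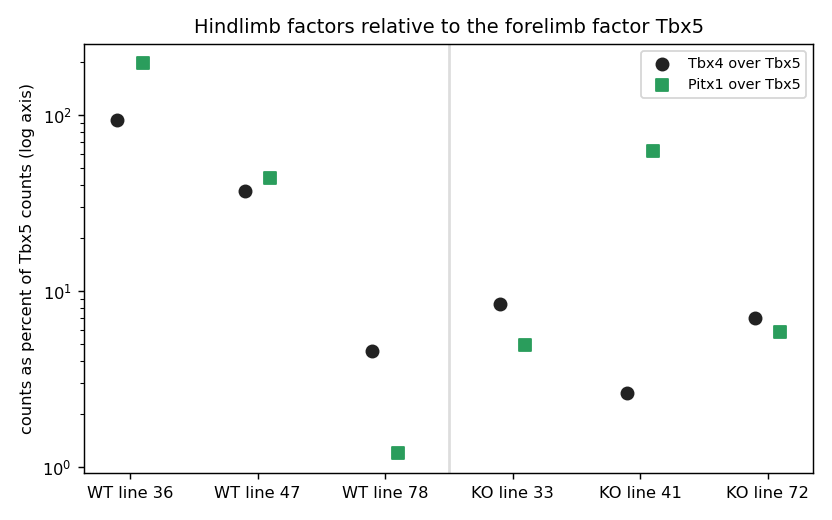
Counts of Tbx4 (circles) and Pitx1 (squares) as a percentage of Tbx5 counts in each of the 6 lines, on a log axis. WT line 36 is highest for both genes, at 93.5% and 195%, and KO line 41 separates the genes, with 62.6% for Pitx1 and 2.64% for Tbx4.

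Hand2, the posterior limb factor, lies on chromosome 8 (57320983 to 57324633, plus strand). It was at 2.09, 1.85 and 2.66 CPM in WT lines 36, 47 and 78 and at 2.40, 3.06 and 7.17 CPM in KO lines 33, 41 and 72. KO line 72 was highest, 2.34-fold above KO line 41, and the lowest KO line lay inside the WT range. The log2 fold change was 0.93 ± 0.44 (SE, edgeR adjusted p = 0.395) and 0.32 without KO line 72. Over the 6 lines the centred log2 CPM of Hand2 and Tbx5 had a root mean square difference of 0.32. Some other pairs of factors were about as close, at 0.31 for Shox2 and Emx2 and 0.39 for Tbx5 and Emx2, while most pairs differed more.

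Shox2, a factor of the proximal limb skeleton, lies on chromosome 3 (66971727 to 66981771, minus strand). It was at 50.7, 36.5 and 69.3 CPM in WT lines 36, 47 and 78 and at 38.2, 55.7 and 42.4 CPM in KO lines 33, 41 and 72. The lines of both genotypes were interleaved, and the log2 fold change was -0.20 ± 0.25 (SE, edgeR adjusted p = 0.765). Tbx15, a T-box factor of the shoulder girdle and trunk dermis, lies on the same chromosome (99240381 to 99354259, plus strand). It was at 88.5, 85.7 and 112 CPM in the WT lines and at 93.3, 104 and 44.9 CPM in the KO lines, so KO line 72 was lowest and KO lines 33 and 41 lay within the WT range. Its log2 fold change was -0.25 ± 0.31 (SE, edgeR adjusted p = 0.761), and it was 0.05 without KO line 72.

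Emx2, a homeobox factor of the limb girdles and the urogenital tract, lies on chromosome 19 (59458372 to 59465357, plus strand). It was at 18.7, 20.4 and 23.8 CPM in WT lines 36, 47 and 78 and at 18.3, 18.3 and 22.8 CPM in KO lines 33, 41 and 72. It was the steadiest of the 10 factors, with 1.30-fold between the highest and the lowest line, and its log2 fold change was -0.08 ± 0.14 (SE, edgeR adjusted p = 0.817). The exons of Shox2 share 153 bases with those of Rsrc1 on the opposite strand, and those of Emx2 share 264 with Emx2os. Of the other factors, Hand2 shares 461 bases with Hand2os1 on the opposite strand, and Pitx1 shares 165 with Gm47071 on the opposite and 108 with Gm28760 on the same strand. The library kit does not mark strand, so reads from these stretches may belong to either gene.

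The Msx genes encode closely related homeodomain repressors. Msx1 lies on chromosome 5 (37820485 to 37824583, minus strand). WT lines 36, 47 and 78 held 138, 232 and 146 counts of Msx1, which are levels of 1.83, 2.88 and 1.48 CPM. KO lines 33, 41 and 72 held 156, 150 and 6796 counts, or 1.75, 2.22 and 88.1 CPM. The single line KO 72 was thus 30.6-fold above the next highest line, and the other 5 lines lay within a narrow band in which the genotypes overlapped. KO over WT, Msx1 had a log2 fold change of 3.90 ± 1.60 (SE) with an edgeR adjusted p of 0.337 (0.0489 before adjustment), and one of -0.04 without KO line 72.

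Msx2 lies on chromosome 13 (53466884 to 53473074, minus strand). It was at 2.36, 2.01 and 1.03 CPM in WT lines 36, 47 and 78 and at 0.921, 1.57 and 39.1 CPM in KO lines 33, 41 and 72. KO line 72 was 16.6-fold above the next highest line, while KO line 33 was the lowest of all. Its log2 fold change was 2.95 ± 1.44 (SE, edgeR adjusted p = 0.414), and it was -0.52 without KO line 72. Lhx9, a LIM homeobox factor, lies on chromosome 1 (138825186 to 138848577, minus strand). It was at 6.96, 3.23 and 3.17 CPM in the WT lines and at 3.90, 4.11 and 52.9 CPM in the KO lines. KO line 72 was 7.60-fold above the next highest line, which was WT line 36. For Lhx9 the log2 fold change was 2.19 ± 1.10 (SE, edgeR adjusted p = 0.426), and it was -0.14 without KO line 72.

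Counted together, 0 of the 10 factors passed an adjusted p of 0.05 in edgeR, against 0.528% of all tested genes, and 1 passed an unadjusted p of 0.05 (background 14.6%). The count was also 0 in DESeq2 (background 6.14%) and in voom (background 1.81%). Under the looser limits that the study used, at least 1.5-fold and p under 0.05 before adjustment, Msx1 was called higher in KO lines (background 1.5% of tested genes called higher and 6.11% called in either direction). DESeq2 called Hand2 higher (background 2.03%) and Tbx4 lower (background 4.61%), while its outlier filter gave no p for Msx1, Msx2 and Lhx9. With that filter off, Msx1 (DESeq2 adjusted p = 0.116, and 0.0107 before adjustment) and Msx2 (DESeq2 adjusted p = 0.265, and 0.0422 before adjustment) were past the looser limits as well. The edgeR call of Msx1 was lost without KO line 72, when Tbx4 was the only factor called, in the lower direction (background 4.36%). It was also lost without WT line 36 or 47, when 0 factors were called, and without WT line 78, when Tbx4 was called. Without KO line 33, Hand2, Lhx9, Msx1 and Msx2 were called higher, among 982 tested genes called in either direction. Without KO line 41, Lhx9, Msx1 and Msx2 were, among 1090. KO line 72 has more weight in both of these fits. With lane in the model Tbx4 (-1.36 on the log2 scale) was again the only factor called (background 3.17%), and the values of Msx1 and Pitx1 were 2.46 (edgeR adjusted p = 0.868) and -0.07 (edgeR adjusted p = 0.995). Lane 8 held only WT line 36, so the fit with lane draws no contrast between genotypes from that line. The genotypes overlapped for all 10 factors, whereas 22% of tested genes had genotypes that did not overlap. Log2 fold changes were positive for 5 factors and negative for 5, with a median of 0.11, against 0.0085 over all tested genes.

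**Figure D4:**
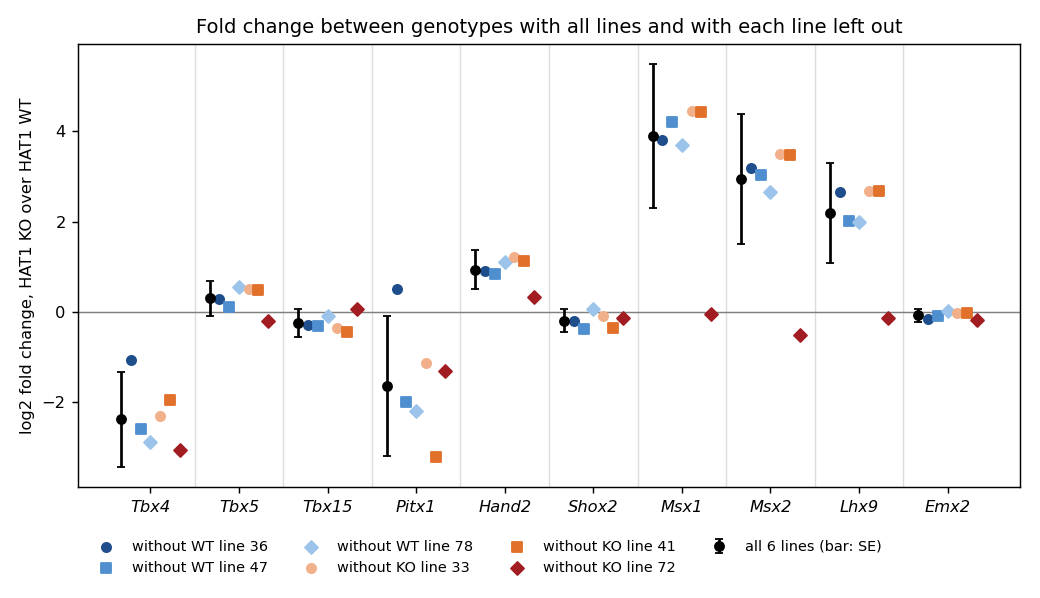
Log2 fold change of HAT1 KO over HAT1 WT lines for the 10 factors, with all 6 lines (black, bars are SE) and with each line left out (colours as for the lines). Without KO line 72 the values of Msx1, Msx2 and Lhx9 move from 3.90, 2.95 and 2.19 to -0.04, -0.52 and -0.14, and without WT line 36 that of Pitx1 moves from -1.65 to 0.50.

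The spread within genotypes was large for most of these factors. The pooled SD of log2 CPM within genotypes was 2.78 for Pitx1, 2.27 for Msx1, 2.11 for Msx2, 1.64 for Tbx4 and 1.59 for Lhx9. Tested genes of similar abundance had median SDs of 0.43, 0.27, 0.32, 0.44 and 0.19, respectively. The other 5 factors ranged from 0.18 (Emx2) to 0.61 (Hand2), and all 10 were above the median of their abundance class.

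KO line 72 was at least 4-fold above each of the other 5 lines for 3 of the 10 factors, against 0.575% of tested genes (85 genes), and Msx1, Msx2 and Lhx9 ranked 3, 11 and 39 of 14773 genes by that excess. The factors were chosen with earlier results of these data known. The shares and ranks of single lines given here are therefore descriptions and test no excess. At 2-fold, a limit chosen after seeing the data, the count was 4, with Hand2, against 2.19%. KO line 72 stood apart for many other genes as well, and was at least 4-fold below each of the other lines for 1.5% of tested genes and for none of the 10 factors. WT line 36 was at least 4-fold above every other line for 0 of the 10 factors and 0 of all tested genes. At the 2-fold limit it was above every other line for Tbx4 (3.38-fold) and Pitx1 (3.42-fold), against 0.122% of tested genes. In lane 6, which KO lines 33 and 72 shared with WT line 47, Msx1 was 4.93 higher on the log2 scale in KO line 72 than in WT line 47 and lower by -0.72 in KO line 33. For Msx1, WT line 47 was also the next highest of all lines, so this difference is the same 30.6-fold, and the part of lane was not tested apart from the fit with lane in the model. In KO line 72 the summed level of neural and Schwann markers was 215 CPM, of which Map2 gave 153 CPM, against 60.1 to 134 CPM in the other lines, and that of cartilage markers was 13.6 CPM, against 18.8 to 153 CPM. The part of these markers in the values of KO line 72 was not tested.

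Genes with profiles most like those of the 3 factors of widest range were sought among 12852 tested genes with a mean of at least 50 counts, by the root mean square difference of centred log2 CPM over the 6 lines. Nearest to Pitx1 was Hoxc10 (0.81), a posterior Hox gene, at 8.07, 6.78 and 0.222 CPM in WT lines 36, 47 and 78 and 0.191, 4.41 and 1.04 CPM in KO lines 33, 41 and 72. Rnaset2b (1.00), a ribonuclease gene with a near-identical copy, and Syt14 (1.11) followed. Hoxc10 thus shared with Pitx1 its high level in WT lines 36 and 47 and KO line 41. Nearest to Msx1 were Homer2 (0.26), a scaffold protein gene, Hoxd12 (0.32), a Hox gene of the distal limb, and Coch (0.37), which encodes a matrix protein. Nearest to Msx2 were Homer2 (0.30), the collagenase gene Mmp13 (0.35) and the kinase gene Mapk13 (0.39). Homer2 was at 35.7 CPM in KO line 72 and at most 1.76 CPM elsewhere. Mmp13 was at 128 CPM in KO line 72 and at most 8.99 CPM elsewhere. These profiles rest on 6 libraries and, for the Msx genes, mainly on KO line 72.

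Lists of related genes were described in the same fit. Of 22 Hox genes of body position, which set position along the body and limb axes, Hoxd11, Hoxc12 and Hoxd12 were called higher and Hoxc9 lower under the looser limits (background 1.5% higher and 4.62% lower), and 0 passed the adjusted threshold. Hoxd11 was at 0.265, 0.410 and 0.576 CPM in WT lines 36, 47 and 78 and at 0.584, 2.69 and 10.6 CPM in KO lines 33, 41 and 72 (log2 fold change 3.46 ± 1.03, SE). Hoxd12 was at 4.50 CPM in KO line 72 and at most 0.178 CPM elsewhere. Hoxc12 was at 2.43 CPM in KO line 41 and at most 0.168 CPM elsewhere. Its counts were 4, 8 and 0 in WT lines 36, 47 and 78 and 15, 164 and 12 in KO lines 33, 41 and 72. It thus passed the filter on low counts through the KO lines alone, and its call is not a fair test. Hoxc9, which marks the thorax and flank, was at 5.33, 4.68 and 1.32 CPM in the WT lines and at 1.53, 1.54 and 0.622 CPM in the KO lines (log2 fold change -1.62 ± 0.60, SE). The median log2 fold change of the Hox list was 0.23, and the higher values of Hoxd11 and Hoxd12 stood, like those of Msx1, foremost in KO line 72. Without KO line 72, 2 Hox genes were called, without WT line 47 there was 1 call and without WT line 78 there were 2. Without KO line 33 there were 11 and without KO line 41 there were 3, in fits that give KO line 72 more weight. Over all tested genes these fits called 1005, 809, 776, 982 and 1090, in that order. With lane in the model, with voom or without WT line 36, 0 were called.

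Chosen after their values were seen, the Hox genes at least 4-fold above every other line in KO line 72 were Hoxa13, Hoxd12 and Hoxd13, which are used in the most distal part of the limb and the hind end of the trunk. Hoxd13 was at 102 CPM in KO line 72 and at most 5.34 CPM elsewhere. Hoxa13 was at 31.9 CPM in KO line 72 and at most 1.02 CPM elsewhere. In the other lists the same excess was shown by 5 genes. Lhx2, the relative of Lhx9, was at 9.45 CPM and at most 0.919 CPM elsewhere. Lmx1b, the dorsal limb factor, was at 35.8 CPM and at most 6.83 CPM elsewhere. Bmp4, a ligand of the pathway that acts on the Msx genes, was at 68.3 CPM and at most 11.9 CPM elsewhere. The receptor gene Fgfr3 was at 9.13 CPM and at most 2.02 CPM elsewhere, and Tfap2b, a factor of neural crest and facial mesenchyme, was at 24.9 CPM and at most 0.917 CPM elsewhere.

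**Figure D5:**
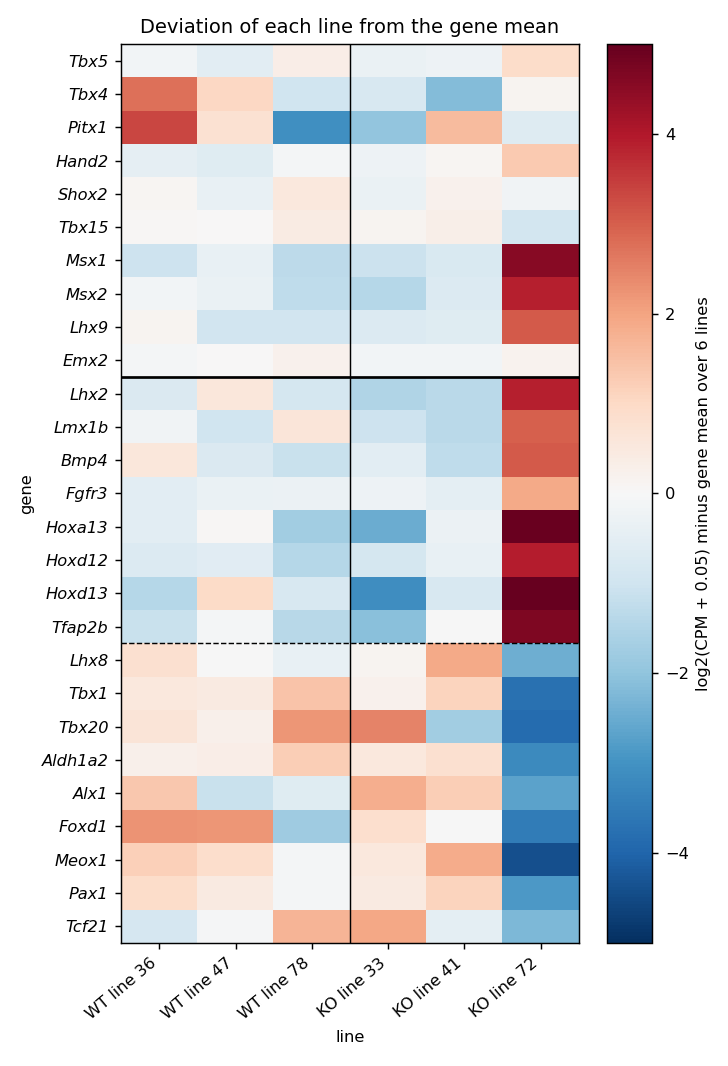
Heat map of the 10 factors (above the solid line), of 8 list genes at least 4-fold higher and of 9 at least 4-fold lower in KO line 72 than in every other line (above and below the dashed line), in 6 lines. Colour is log2(CPM + 0.05) minus the mean of the gene over the 6 lines. The column of KO line 72 is red, at differing depth, for Msx1, Msx2 and Lhx9 and for the 8 genes chosen as high there. The Tbx4 and Pitx1 rows are darkest red in WT line 36.

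The remaining lists showed few calls between the genotypes. Among 24 tested transcription factors of limb bud mesenchyme, Sall1, a zinc-finger factor of limb and kidney, was the only gene called. It was at 0.345, 1.16 and 0.788 CPM in WT lines 36, 47 and 78 and at 0.674, 6.94 and 20.7 CPM in KO lines 33, 41 and 72 (log2 fold change 3.62 ± 1.17, SE, edgeR adjusted p = 0.250). None was called among 11 tested paralogues of the factors, 18 ligands and antagonists of limb signalling, 28 receptors and effectors, and 22 factors of head and trunk mesenchyme. No gene of any of these lists passed the adjusted threshold in edgeR. The median log2 fold changes of these 5 lists were -0.02 for limb bud factors, -0.29 for paralogues, 0.15 for ligands, 0.00071 for receptors and 0.02 for head and trunk factors.

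The genes of smallest p in those uncalled lists had log2 fold changes from -0.59 to 4.03. The BMP antagonist gene Grem1 had a log2 fold change of -0.59 ± 0.25 (SE), from levels of 724, 640 and 744 CPM in WT lines 36, 47 and 78 and 311, 461 and 630 CPM in KO lines 33, 41 and 72. The retinoic acid-degrading enzyme gene Cyp26b1 had one of 0.53 ± 0.18 (SE), with all 3 KO lines above the WT lines. Smo, the hedgehog signal transducer, had one of 0.20 ± 0.06 (SE), and Id2, an inhibitor of helix-loop-helix factors, one of -0.41 ± 0.13 (SE). Mga, the paralogue of smallest p, had one of -0.29 ± 0.10 (SE), and Lhx2 one of 2.65 ± 1.57 (SE). Among head and trunk factors, Tfap2b had one of 4.03 ± 1.73 (SE), carried by KO line 72, and Meox2 one of 1.52 ± 0.74 (SE), highest in KO line 33. For these 8 genes the edgeR adjusted p lay between 0.212 and 0.492.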

How the data were processed

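RNA of 6 pMEF lines was extracted as total RNA, and libraries were made with an unstranded TruSeq v2 kit. The authors deposited 1 table of raw counts per gene, 1 column per line, with 0 sample columns left unmapped. The submitters' processing notes name the build mm10 and edgeR. The aligner, the counter and the use of strand are not given in the sources used here. The deposited table also holds the authors' own comparison (log2 fold change, log2 mean CPM, an F score, a p-value and a q-value per gene), which was not used. Even numbers made up 75.1% of counts from 1 to 10, against 55.0% of counts from 101 to 1000, so that low counts may hold both reads of a pair.

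All 17512 genes were matched by identifier to GENCODE M21 (GRCm38), which gave positions and merged exon lengths. Counts were fitted with edgeR 4.0.16 in R 4.3.3 (filterByExpr, TMM scaling, glmQLFit and glmQLFTest, genotype alone, two-sided, Benjamini-Hochberg adjustment over 14773 genes). The SE was approximated as the log2 fold change over the root of its F value. Samples were grouped by the genotype of the labels, and no libraries were identical. Alternatives were DESeq2 1.42.0, voom with sample quality weights in limma 3.58.1, other scalings and filters, halved counts, lane in the model and each line left out. Ratios used a prior count of 0.5 and exact permutation tests. The scripts were tested on simulated counts. The members and the gene lists were chosen with earlier results of these data known. The text names Hat1, the 10 factors and, in each list, up to 5 genes of smallest p at the 1.5-fold thresholds or else the 2 of smallest p. It also names the 3 nearest profiles for 3 factors, markers, and genes said to be chosen after their values were seen.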

Additional observations from a re-analysis of the deposited data

How the results depend on the processing

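Of 140 values of the 10 factors under alternatives, 130 kept the direction and the side of the adjusted threshold, and 10 reversed. The DESeq2 values of Msx1, Msx2 and Lhx9, which had no p, were counted by direction alone. DESeq2 size factors or library size alone reversed none of the 10, nor moved the median over all tested genes by as much as 0.1 on the log2 scale. Voom with sample quality weights gave 0.0144 for Shox2 and -0.0088 for Msx2. It kept the direction of Msx1 and Lhx9 but at only 0.59 and 0.36. The log2 fold changes with 1 line left out ranged from -0.04 to 4.46 for Msx1, from -0.52 to 3.50 for Msx2, from -0.14 to 2.68 for Lhx9, from -0.22 to 0.55 for Tbx5, from -0.46 to 0.05 for Tbx15, from -3.24 to 0.50 for Pitx1, from -0.40 to 0.07 for Shox2 and from -0.18 to 0.02 for Emx2. The values without KO line 72 were -0.0440 (Msx1), -0.52 (Msx2), -0.14 (Lhx9), -0.22 (Tbx5) and 0.0546 (Tbx15), the value without WT line 36 was 0.50 (Pitx1), and those without WT line 78 were 0.0679 (Shox2) and 0.0228 (Emx2). Over all alternatives the adjusted p of Tbx4 ranged from 0.113 to 0.730 and that of Msx1 from 0.297 to 0.967.

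The number of factors called at 1.5-fold and an unadjusted p under 0.05 was 1. It was 2 with DESeq2 (Hand2 and Tbx4), 1 with lane in the model (Tbx4 in place of Msx1), 0 with voom or with a mean of at least 50 counts, and 0 to 4 with 1 line left out. With lane in the model Pitx1 moved from -1.65 to -0.0701, Msx1 from 3.90 to 2.46 and Tbx4 from -2.39 to -1.36. Lane 8 held only WT line 36, so that fit draws no contrast between genotypes from this line. These shifts therefore mix lane with the loss of WT line 36. Leaving out WT line 36 alone gave 0.50 for Pitx1, 3.82 for Msx1 and -1.07 for Tbx4. DESeq2 gave no p for Msx1, Msx2 and Lhx9, whose counts in KO line 72 passed its outlier limit, and without that filter their adjusted p were 0.116, 0.265 and 0.332 (before adjustment 0.0107, 0.0422 and 0.0640), so that Msx1 and Msx2 passed the looser limits. The 78 tested genes past the adjusted threshold became 869 with DESeq2, 267 with voom, 46 without the filter, 2 with lane in the model and 0 to 73 with 1 line left out. The 903 tested genes past 1.5-fold became 529 with lane in the model and 688 to 1090 with 1 line left out. The Hox list had 4 calls, 0 with voom or lane, 2 with halved counts and 0 to 11 with 1 line left out. The ligand list had 0 calls, 1 with DESeq2 or lane, 3 with voom and 0 to 4 with 1 line left out, and the limb bud list had 1, 2 with DESeq2 and 0 to 2 with 1 line left out. Leaving out 1 line gave 0 to 2 calls among paralogues and among receptors and 0 to 5 among head and trunk factors.

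Hat1 was at -1.10 with lane in the model (edgeR adjusted p = 0.529) and at -1.08 to -0.87 with 1 line left out, no longer past the adjusted threshold in any of these 7 fits. Without WT line 36, WT line 47 or KO line 33, 0 of all tested genes passed it. Hat1 did pass with DESeq2 (DESeq2 adjusted p = 4.98e-09) and with voom (voom adjusted p = 0.0394). The log2 ratio of Pitx1 to Tbx5 differed by -2.92 to 0.73 with 1 line left out, and by 0.73 without WT line 36. The causes were not tested. No paired analysis was possible because the genotypes share no line numbers. Lane, which some lines share, entered as a term of a fit. At least 4-fold above every other line, KO line 72 had 3 factors, and at 2-fold, a limit chosen after seeing the data, it had 4, Hand2 being added. Lane 8 held only WT line 36. At 12 counts for Tbx4 in KO line 41 and for Pitx1 in WT line 78, counting error limits the precision of those values.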

Other observations

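Beside the genes that were high in KO line 72, a further 9 list genes were at least 4-fold lower there than in every other line. They were chosen after their values were seen, in a line where 1.5% of tested genes met that limit. They comprised the T-box genes Tbx1 and Tbx20 and the LIM homeobox gene Lhx8, the retinoic acid synthesis enzyme gene Aldh1a2, and the trunk and head mesenchyme factors Alx1, Foxd1, Meox1, Pax1 and Tcf21. Tbx1, a factor of the pharyngeal arches, was at 0.181 CPM in KO line 72 and between 3.55 and 8.25 CPM elsewhere. Meox1, a factor of the somites, was at 0.0519 CPM in KO line 72, from 4 counts, and between 1.94 and 7.68 CPM elsewhere. Aldh1a2 was at 0.130 CPM in KO line 72 and between 1.90 and 3.8 CPM elsewhere. Pax1, which acts in the sclerotome and the pectoral girdle, was at 0.0519 CPM there, from 4 counts, and between 0.647 and 1.54 CPM elsewhere.

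Other lines also had list genes that stood apart by 4-fold. In KO line 41, Hoxc11 was at 5.56 CPM and between 0 and 0.636 CPM elsewhere. Hoxc11 and Hoxc12 were listed at 0 counts in WT line 78, the line with the lowest Pitx1. In KO line 33, Hoxa11 was at 0.292 CPM and between 1.32 and 16.3 CPM elsewhere. These genes were likewise chosen after their values were seen, and no difference between lines was tested.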
